A study of Mus musculus with 6 samples.

Results

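Aerocytes are the large capillary cells of the alveolus, set apart in the mouse lung by carbonic anhydrase 4 (Car4) and by the endothelin receptor Ednrb. They are flat, branched cells that lie against alveolar type 1 (AT1) epithelium, and gas exchange is their best known task. They share the alveolar capillary with general capillary cells, which carry the apelin receptor Aplnr and are known as the capillary cells that divide, whereas aerocytes make the ligand apelin (Apln). Here 8 aerocyte marker genes, Car4, Ednrb, Apln, Tbx2, Emp2, Fibin, Chst1 and Prx, were followed by bulk RNA sequencing in endothelial cells (ECs) of sham-operated mice and of mice 7 days after unilateral pneumonectomy (PNX), the removal of the left lung, after which the remaining lobes grow. The members were taken by name from the 24063 gene symbols of the count tables. All 8 were present. The rule picks them by name, without a threshold on their values, but the genes were proposed with earlier results of these data known.

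The labels describe male C57BL6 mice, 8 weeks old, and name no mutant allele in either group. The methods give an older age at surgery. Sham mice had a thoracotomy without PNX. There were 3 libraries per group, each pooled from 2 mice, of cells held by anti-CD31 magnetic beads. In each group replicates 1 and 2 carry a mark of re-use in the labels (earlier deposit), and replicate 3 does not (later deposit). Each library held 29526989 to 81282871 counts in all. Replicates 1 and 2 of a group differed by little more than counting error, with a chi-square per degree of freedom of 1.75 in sham and 1.57 after PNX, against 67.9 to 86.4 for pairs with replicate 3. They were therefore summed, which left n = 2 samples per group. Nothing in the labels says more about the separateness of these samples, so the p-values measure the spread between these samples, which may be technical.

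Levels are given as CPM, the count of a gene per 1000000 counts of the TMM-scaled total of its library. EC genes were abundant, with Pecam1, which encodes CD31, at 2038 to 2494 CPM over the 6 libraries. Genes of epithelial cells were abundant as well. The club cell gene Scgb1a1 was at 1987, 2005 and 3666 CPM in sham against 987, 948 and 942 CPM after PNX. RNA of ECs and of epithelial cells was thus present in every library. In such bulk samples fewer cells of a type and less RNA per cell cannot be told apart.

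The aerocyte genes did not all differ in the same direction after PNX. The endothelin receptor Ednrb, apelin, Emp2, Fibin and Chst1 were lower after PNX than in sham within each deposit, at 0.539 to 0.829 of the sham level. Car4 was higher in all 3 PNX libraries than in any sham library, Prx was higher within each deposit, and Tbx2 was higher in the earlier deposit and lower in the later. The median fitted log2 fold change of the 8 genes was -0.36, beside -0.01 over all genes tested.

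No member passed the thresholds of the study, which ask for an adjusted p under 0.01 together with a log2 fold change over 1 in size. With 4 samples, edgeR's quasi-likelihood test with Benjamini-Hochberg adjustment over all genes called 0 of 8 members and 0 of 16598 genes (0% called). At an unadjusted p under 0.05 there were 0 members and 2076 genes. On the same samples limma-voom called 0 members and 0 genes, and DESeq2 called 0 members and 572 genes (3.45% called). With the deposit as a replicate block edgeR called 849 genes (5.12% called, 3.89% higher and 1.23% lower), again with 0 members among them. Taking all 6 libraries singly, it called 409 of 16263 genes (2.51% called) and 0 members. At an adjusted p under 0.05 with any fold change, the blocked fit gave 5 of 8 members, all lower after PNX, where 21.6% of all genes passed the same rule, 10.1% lower and 11.5% higher. In that sense Ednrb, Apln, Emp2, Fibin and Chst1 fell, by amounts under the fold threshold of the study. Without the block 0 members and 0 genes passed at 0.05.

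**Figure D1:**
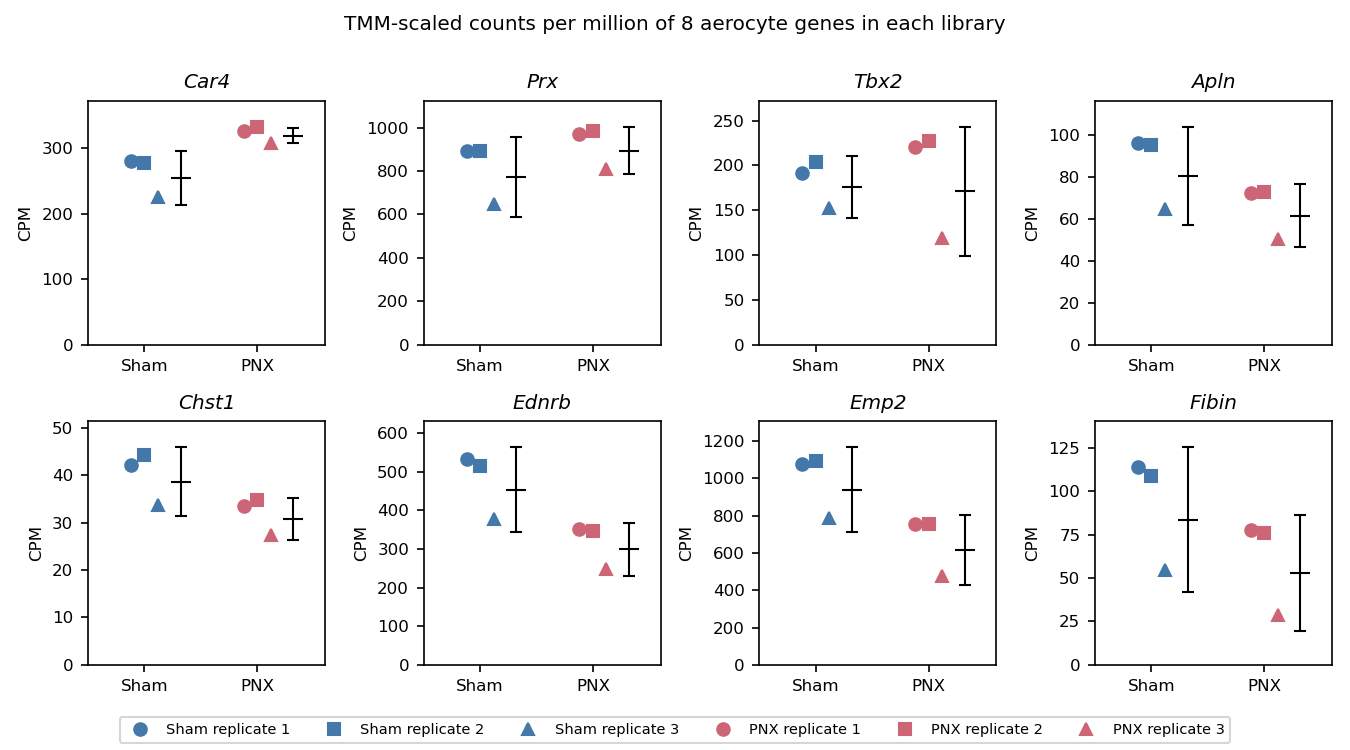
Level of each aerocyte gene in TMM-scaled CPM (vertical axis, from 0) in 3 sham (blue) and 3 PNX (red) libraries, with the replicate number as the symbol. Bars at the right of each group are the mean ± SD of n = 2 samples, replicates 1 and 2 having been summed. Car4 sits at 307 to 332 CPM after PNX, above all sham libraries (226 to 281 CPM), and Ednrb and Emp2 sit below all sham libraries.

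Car4, Ednrb and Emp2 were the members whose 3 PNX libraries did not overlap the 3 sham libraries, 1 higher and 2 lower. Over all genes tested, 18.8% did not overlap with PNX higher and 17.9% with PNX lower, so 3 of 8 is near the background of 36.7%. The sequences before the transcription start of these 3 genes are shown because they are the members whose levels separated the groups, Car4 in the opposite direction to the other two. Each is the 250 bases before the RefSeq start on GRCm38, the build of the count tables (mm10), 5′ to 3′ on the strand of the gene, with capitals at every GGAAG or its reverse complement CTTCC, the core that ETS factors such as ERG bind. The RefSeq start used for Ednrb is inside the annotated gene, so its window is too.
Car4 (chr11:84957504-84957753, plus strand): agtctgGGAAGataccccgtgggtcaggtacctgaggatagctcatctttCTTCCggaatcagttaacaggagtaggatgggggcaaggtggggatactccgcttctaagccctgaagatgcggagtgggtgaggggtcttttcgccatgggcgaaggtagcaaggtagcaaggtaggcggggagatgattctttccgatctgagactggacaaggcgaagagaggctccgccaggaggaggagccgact
Ednrb (chr14:103843702-103843951, minus strand): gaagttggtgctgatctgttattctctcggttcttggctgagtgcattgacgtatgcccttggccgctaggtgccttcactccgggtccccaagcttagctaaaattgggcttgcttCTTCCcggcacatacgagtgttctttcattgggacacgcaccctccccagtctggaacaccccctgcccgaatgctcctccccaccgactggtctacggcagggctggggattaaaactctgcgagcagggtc
Emp2 (chr16:10313969-10314218, minus strand): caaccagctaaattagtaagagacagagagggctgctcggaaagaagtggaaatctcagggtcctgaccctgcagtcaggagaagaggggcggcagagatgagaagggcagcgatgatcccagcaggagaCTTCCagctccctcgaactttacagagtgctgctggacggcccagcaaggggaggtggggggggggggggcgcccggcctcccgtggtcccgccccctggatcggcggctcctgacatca
The Car4 sequence holds GGAAG or CTTCC 2 times and the other sequences 1 time each. A match was present in 7 of 7 member sequences in the RefSeq table (Car4, Ednrb, Apln, Emp2, Fibin, Chst1 and Prx) and in 64.1% of 32851 sequences of the same length. The T-box half-site AGGTGT and the hypoxia response core ACGTG, neither of which contains GGAAG, were in 0 of 7, against 11.8% and 16.6% of all sequences, on either strand. The GC content was 56.4% for Car4, 56.8% for Ednrb and 62.8% for Emp2, beside a median of 52.4%. These are descriptions of letters in a window, and the data hold no measurement of binding.

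Car4 encodes a carbonic anhydrase anchored to the outer face of the cell membrane, where it speeds the exchange between carbon dioxide and bicarbonate. In GENCODE vM21 (GRCm38) it occupies 84957786 to 84966044 of chromosome 11, plus strand, and overlaps no other gene. It was counted on 1 transcript, NM_007607. Sham replicates 1, 2 and 3 had 281, 277 and 226 CPM, and PNX replicates 1, 2 and 3 had 326, 332 and 307 CPM. The 3 PNX libraries lay closer together than the sham libraries, of which replicate 3 was lowest. On average sham had 254 ± 41.2 CPM and PNX 319 ± 11.4 CPM (mean ± SD over n = 2 samples), a log2 fold change of 0.33 (SE 0.17, adjusted p = 0.54 by edgeR).
The replicate block gave 0.34 (SE 0.10, adjusted p = 0.0526 by edgeR), just outside 0.05, and Car4 passed 0.05 with the block and library size alone (0.0435), identical transcripts counted once (0.047), 6 separate libraries (0.0112) or DESeq2 (0.0483), and without sham replicate 2 (0.0469). It did not pass with DESeq2 size factors (0.0553), without sham replicate 1 (0.0573), without PNX replicate 1 (0.0527) or without PNX replicate 2 (0.0602). The fit with 6 separate libraries had the replicate number, not the deposit, as its block. It took replicates 1 and 2 as separate samples, though they differed by little more than counting error. Its standard error (0.06) and p therefore understate the spread between samples. Car4 was 1.16 times the sham level in the earlier deposit and 1.38 times in the later. Set against Pecam1 in the same library, which needs no scaling, it had 11.3, 11.1 and 11.1 counts per 100 Pecam1 counts in sham and 13.2, 13.4 and 14.6 after PNX. The sham libraries were alike on this measure and all 3 PNX libraries were above them.

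Among the 16 listed carbonic anhydrases, 13 had counts enough to be tested. In the blocked fit 3 were called by the thresholds of the study, all higher (where 3.89% of all genes were called higher), and at an adjusted p under 0.05 the same 3 were higher and Car8 lower. Car3, an enzyme of muscle and fat cells, was at 0.119 to 0.261 CPM in sham against 2.48 to 7.55 CPM after PNX, with a blocked log2 fold change of 4.96 (edgeR adjusted p = 4.14e-05). Car6, the secreted form known from saliva, had at most 1 count in any sham library. Car13, a cytosolic form, rose by a blocked log2 fold change of 1.44 (edgeR adjusted p = 0.00217) to 3.35 to 5.63 CPM. These are low next to Car4. Car8, a relative without enzyme activity, fell with a blocked log2 fold change of -0.73 (edgeR adjusted p = 0.00359). Car15, a membrane-anchored form named for the size of its difference, had a log2 fold change of -0.83 (edgeR adjusted p = 0.357, 0.0504 with the block).

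Ednrb is the G protein-coupled receptor through which endothelins act on ECs. It occupies 103814625 to 103844402 of chromosome 14, minus strand, and overlaps no other gene. Its level was 532, 515 and 378 CPM in sham replicates 1, 2 and 3 and 351, 347 and 248 CPM in the PNX replicates. Every PNX library was below every sham library, and replicate 3 was lowest in each group. The sham mean of 453 ± 110 CPM compares with 299 ± 68.5 CPM for PNX (SD, n = 2 samples), a log2 fold change of -0.60 (SE 0.26, adjusted p = 0.458 by edgeR without and 0.00494 with the replicate block). The ratio of PNX to sham was 0.654 in the earlier deposit and 0.668 in the later. Ednrb has 3 RefSeq transcripts with 15706, 11588 and 15583 counts in sham replicate 1 (NM_001136061, NM_001276296 and NM_007904) and 9554, 7041 and 9481 in PNX replicate 1. If reads that the transcripts share were counted on each, the sum holds them several times, in both groups alike.

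The ligands and enzymes of the pathway are in the same libraries. Edn1, the main endothelin of vessels, was at 198, 200 and 114 CPM in sham against 83.4, 85 and 33.3 CPM after PNX, without overlap. PNX against sham gave -1.42 on the log2 scale (SE 0.52, adjusted p = 0.379 by edgeR), and it was called with the block at -1.50 (edgeR adjusted p = 2.45e-04). This was the 1 gene of the 7 that the thresholds of the study called with the block, where 1.23% of all genes were called lower. Ece1, the enzyme that cuts the endothelin precursor to its active form, had a blocked log2 fold change of -0.44 (edgeR adjusted p = 0.0327), while its relative Ece2, at 7.12 to 10.6 CPM, had 0.47 (0.0315). Ednra, the endothelin receptor of smooth muscle and pericytes, was at 32.2 to 39.2 CPM in sham against 26.8 to 44.2 CPM after PNX, with a log2 fold change of -0.03 (edgeR adjusted p = 0.987). Edn3 and Edn2 were low, and their log2 fold changes of -0.35 and -0.60 did not pass (edgeR adjusted p of 0.897 and 0.866). At 0.05 in the blocked fit 3 of the 7 genes were lower (Edn1, Ece1 and Ednrb) and 1 higher, beside 10.1% and 11.5% of all genes, and the ligands Edn2 and Edn3 did not pass (adjusted p of 0.702 and 0.188).

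Apln encodes apelin, a secreted peptide that is also a gene of sprouting tip cells. Its place is 48025146 to 48034853 of chromosome X, minus strand. The level was 96.2, 95.5 and 64.8 CPM in sham against 72.4, 73 and 50.4 CPM after PNX. The PNX libraries of the earlier deposit were above sham replicate 3, so the groups overlapped, while within each deposit PNX was lower (0.745 and 0.794 of the sham level). PNX against sham gave -0.39 on the log2 scale (SE 0.28, adjusted p = 0.673 by edgeR without and 0.0167 with the replicate block). The receptor Aplnr was at 114, 113 and 88.2 CPM in sham against 83.6, 82.6 and 67.8 CPM after PNX, with a blocked log2 fold change of -0.42 (edgeR adjusted p = 0.0123). Ligand and receptor were lower by like amounts, and their ratio hardly moved. Apelin had 84.1, 84.7 and 73.5 counts per 100 Aplnr counts in sham and 86.7, 88.4 and 74.3 after PNX. Apela, the other ligand of this receptor, had 0 counts in sham and was not tested.

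Emp2 encodes a membrane protein with 4 passes through the membrane that acts in caveolae, and AT1 cells make it as well as aerocytes. The gene occupies 10281749 to 10313968 of chromosome 16, minus strand. It was at 1078, 1093 and 786 CPM in sham against 755, 754 and 477 CPM after PNX, with no overlap. Sham samples averaged 939 ± 227 CPM and PNX samples 616 ± 190 CPM (SD, n = 2 samples). PNX against sham gave a log2 fold change of -0.61 (SE 0.30, adjusted p = 0.518 by edgeR without and 0.00744 with the replicate block), and the ratio of PNX to sham was 0.682 and 0.619 in the earlier and later deposits. AT1 markers were lower too, 5 of 7 at 0.05 in the blocked fit, with 1 higher, beside 10.1% and 11.5% of all genes. The summed level of 7 AT1 genes was 2298 to 5416 CPM in sham against 1133 to 4057 CPM after PNX, 0.735 and 0.503 of sham by deposit, and none of the 7 was at 0. Rtkn2 and Akap5, AT1 genes of signalling, were called lower with the block (log2 fold changes of -1.26 and -1.21, edgeR adjusted p of 0.00146 and 0.00145), as Hopx, a homeodomain protein, was at 0.05 (-0.84, 0.0025). Ager, the receptor RAGE of AT1 cells, was at 3362, 3424 and 1294 CPM in sham against 2589, 2629 and 436 CPM after PNX. Ager counts per 100 Emp2 counts were 312, 313 and 165 in sham and 343, 349 and 91.3 after PNX. The ratio was higher after PNX in the earlier deposit and lower in the later. The part of AT1 RNA in the Emp2 level was not tested.

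Other members of the Emp2 family behaved differently. Emp1 rose from 1013, 1000 and 534 CPM in sham to 1926, 1858 and 1270 CPM after PNX, and was called in the blocked fit with a log2 fold change of 1.08 (edgeR adjusted p = 0.00191). Emp3, also found in leukocytes, had a blocked log2 fold change of 0.70 (edgeR adjusted p = 0.00534), and Pmp22, the myelin protein that names the family, had -0.06 (0.68). Of the 4 genes, 2 were higher and 1, Emp2, lower at 0.05, beside 11.5% and 10.1% of all genes.

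Prx encodes periaxin, a scaffold protein first known from the myelin of Schwann cells and abundant in lung capillary ECs. Its place is 27499324 to 27520214 of chromosome 7, plus strand. An antisense gene, Gm15541, overlaps its exons, and since counting is not stated to use the strand, reads of the pair cannot be told apart. The level was 890, 894 and 647 CPM in sham against 968, 984 and 807 CPM after PNX, where PNX replicate 3 lay below sham replicates 1 and 2. Within the deposits Prx was 1.07 and 1.27 times the sham level. The log2 fold change of 0.21 (SE 0.23, adjusted p = 0.801 by edgeR without and 0.208 with the replicate block) did not pass. Without the block and without sham replicate 3 it was -0.0035, in a fit that set PNX of both deposits against sham of the earlier deposit alone. Its transcripts NM_019412 and NM_198048, had 35997 and 35698 counts in sham replicate 1 and 36080 and 35828 in PNX replicate 1, so they cannot be separated here. Sox10, a transcription factor of Schwann cells, was at or under 0.119 CPM in every library, against 647 to 984 CPM for Prx. The summed level of 6 Schwann cell genes was 57.4 to 121 CPM in sham against 49.2 to 107 CPM after PNX, 0.842 and 0.903 of sham by deposit.

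Fibin encodes a small secreted protein first described in fin bud development, and has 1 transcript on the minus strand of chromosome 2 (110360917 to 110363183). It was at 114, 109 and 54.7 CPM in sham against 77.9, 76.2 and 28.9 CPM after PNX. In sham it varied more between deposits than any other member, the later library being lower than the earlier by 1.06 on the log2 scale. Within the deposits the PNX level was 0.678 and 0.539 of sham. The log2 fold change was -0.66 with a standard error of 0.57 and an edgeR adjusted p of 0.737, whereas with the replicate block it was -0.72 with a standard error of 0.10 and an adjusted p of 0.00338. Chst1, a Golgi enzyme that adds sulfate to galactose, as in keratan sulfate, lies on the plus strand of chromosome 2 (92599707 to 92615250). It was the least abundant member, at 42.1, 44.3 and 33.7 CPM in sham against 33.5, 34.8 and 27.4 CPM after PNX. Its log2 fold change of -0.32 (SE 0.20, adjusted p = 0.614 by edgeR without and 0.0369 with the replicate block) was 0.776 and 0.829 of sham as a level. Counting error is small even here, since the lowest count of a member in any library was 818 (Chst1 in PNX replicate 3), with a counting SD of 3.5%.

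Tbx2 is a T-box transcription factor, mostly a repressor, that also serves lung mesenchyme. Its place is 85832551 to 85841948 of chromosome 11, plus strand. Sham replicates had 192, 204 and 153 CPM and PNX replicates 220, 227 and 119 CPM. In the earlier deposit both PNX libraries were above both sham libraries, with a log2 difference of 0.15, and in the later deposit PNX was below sham, with -0.33. The fit over both deposits gave -0.04 on the log2 scale (SE 0.34, adjusted p = 0.985 by edgeR) and it changed sign under pan-endothelial scaling (0.16). The summed level of 7 genes of pericytes and smooth muscle was also above sham in the earlier deposit and below it in the later. It was 1.25 and 0.712 times sham, and 0 of the 7 passed at 0.05 in the blocked fit, beside 21.6% of all genes. The genes with the largest fitted differences in that list did not all follow the sum. Myh11, the smooth muscle myosin, had log2 differences of 0.05 and -1.08 in the earlier and later deposits and Cspg4, the pericyte proteoglycan NG2, had 1.01 and -0.08, whereas Kcnj8, a potassium channel of pericytes, was higher in both, with 0.10 and 0.96. The part of these cells in the Tbx2 level was not tested. The lung mesenchyme factors Tbx4 and Tbx5 had log2 differences of -0.06 and -0.64 and of 0.24 and -0.51 in the earlier and later deposits.

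**Figure D2:**
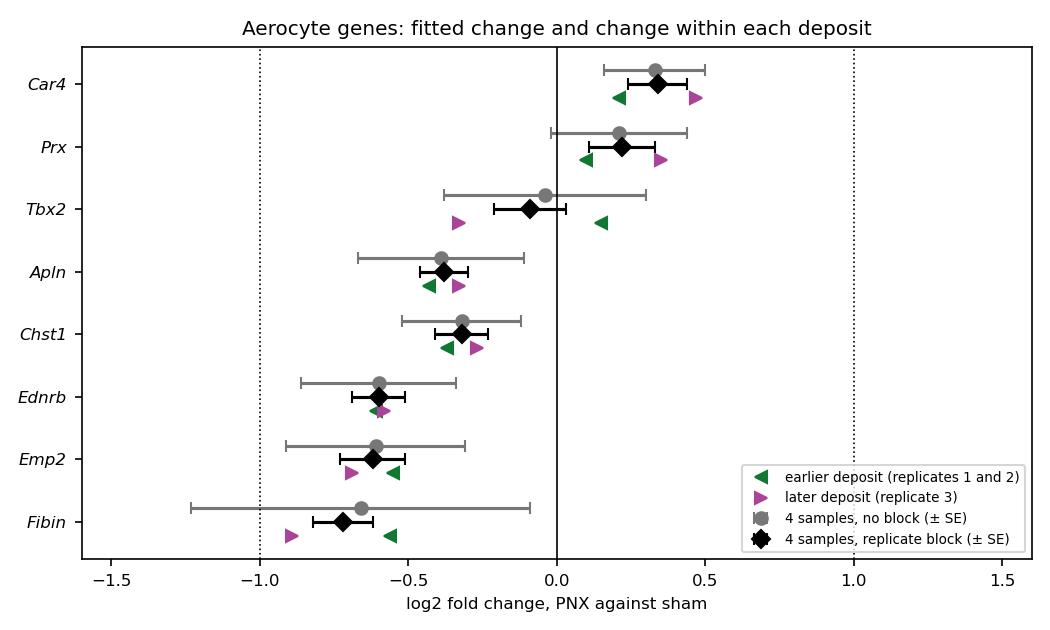
Log2 fold change of each aerocyte gene, PNX against sham (horizontal axis), from the edgeR fit with 4 samples (grey circles, bars are standard errors), from the fit with the replicate block (black diamonds, bars are standard errors), and as the plain difference within the earlier and later deposits (triangles, no error). Dotted lines mark a log2 fold change of 1 in size, which no gene reaches, and the deposits have opposite signs for Tbx2 alone.

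Ratios of members within a library do not depend on how libraries are scaled. Ednrb had 189, 186 and 167 counts per 100 Car4 counts in sham and 108, 105 and 80.7 after PNX. Its ratio to Car4 was 0.566 of sham in the earlier deposit and 0.483 in the later. PNX was below sham in 2 of 2 sample pairs. The two-sided exact permutation p of 0.333 is the smallest that 4 samples can give. It was the same for all 5 ratios tested (adjusted p 0.333), and those of Tbx2 and Prx to Car4 were not tested. The 5 genes tested were those lower within each deposit, and Car4 was higher, so the direction of their ratios followed from that choice. Emp2 had 384, 395 and 347 per 100 Car4 counts in sham and 232, 227 and 155 after PNX. The same order held for Apln and Chst1, with ratios of PNX to sham of 0.644 and 0.573 and of 0.671 and 0.599. Fibin was at 40.6, 39.3 and 24.2 in sham and 23.9, 23 and 9.4 after PNX, where PNX replicate 1 almost met sham replicate 3. Prx was at 317, 323 and 286 in sham and 297, 297 and 262 after PNX, with overlap. Tbx2 was at 68.4, 73.8 and 67.8 in sham and 67.5, 68.3 and 38.8 after PNX, where PNX replicate 3 stands apart. Scaling the libraries by 10 pan-endothelial genes, whose summed level was 0.81 and 0.935 of sham, moved the median of all genes to 0.19 in the blocked fit. On that scale 19.9% of all genes passed 0.05 as higher and 3.5% as lower. Of the 8 members 2 were higher, near the background, and 3 lower, above it, and no test was run on the set. Car4 and Prx were higher (log2 fold changes of 0.54 and 0.43, edgeR adjusted p of 0.00422 and 0.0219), Ednrb, Emp2 and Fibin lower (-0.40, -0.42 and -0.52, adjusted p of 0.0276, 0.0319 and 0.0152), and Apln and Chst1 did not pass (-0.18 and -0.11, adjusted p of 0.277 and 0.529).

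**Figure D3:**
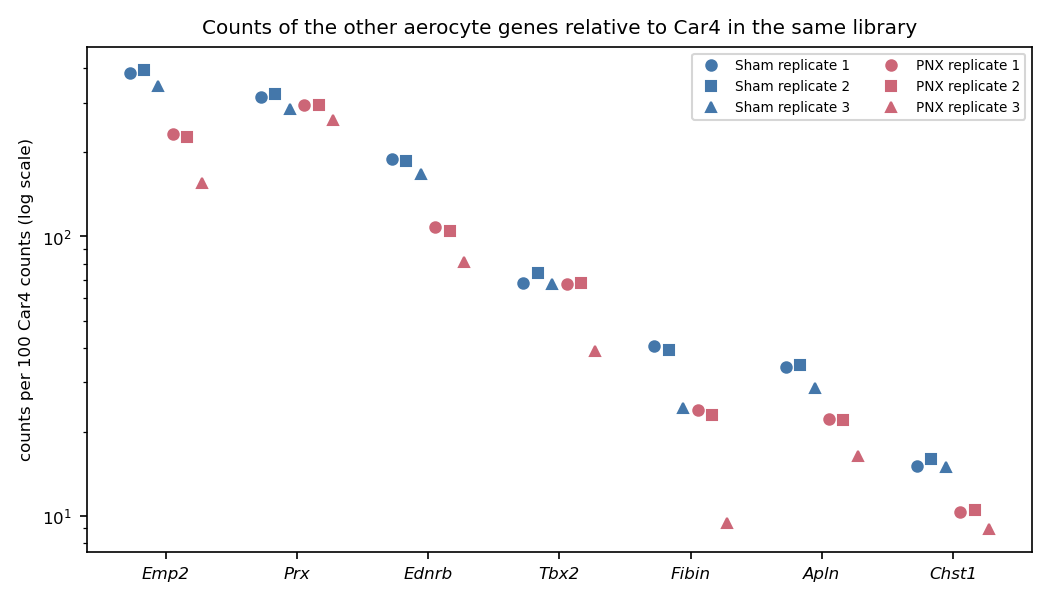
Counts of the 7 other aerocyte genes per 100 Car4 counts of the same library (vertical axis, log scale), for 3 sham (blue) and 3 PNX (red) libraries, with the replicate number as the symbol. Ednrb, Emp2, Apln, Fibin and Chst1 lie lower in every PNX library than in any sham library, and Prx stays between 262 and 323.

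Per length of transcript, as the deposited TPM summed over a symbol, the order of the members in sham was Emp2 (684 ± 163), Car4 (489 ± 77.3), Prx (391 ± 92.3), Ednrb (312 ± 74.8), Tbx2 (124 ± 23.7), Fibin (101 ± 49.8), Apln (64.2 ± 18.2) and Chst1 (36.1 ± 6.69; SD, n = 2 samples). Neighbours among the first 4, and Tbx2, Fibin and Apln, differed by less than the sum of their SDs. After PNX Car4 was highest, at 613 ± 18.5 TPM, above Prx (451 ± 52.7) and Emp2 (447 ± 135). Car4 ranked 219 to 235 among 16598 genes in the PNX libraries and 268 to 351 in sham, while Ednrb ranked 448 to 637 in sham and 715 to 1065 after PNX. The sums for Ednrb and Prx rest on several transcripts and may count shared reads more than once.

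The members also differed in the genes whose pattern was most like theirs, by the root mean square difference of centred log2 CPM over the 4 samples among 14290 genes. Ednrb and Emp2 were the closest pair of members (0.0603 log2 units), followed by Car4 and Prx (0.102) and by Apln and Chst1 (0.11), and Car4 and Fibin were farthest apart (0.753). Nearest to Car4 were Ubr7 (0.0136) and the protocadherin Pcdh17 (0.0179). Nearest to Ednrb were Rsbn1 (0.0209) and the fatty acid transporter Cd36 (0.0221), at 9593, 9232 and 6870 CPM in sham against 6243, 6246 and 4616 CPM after PNX. Chst1 was nearest to the Notch ligand Dll4 (0.00702), at 115, 114 and 90.3 CPM in sham against 89.9, 90.5 and 73 CPM after PNX. Apln was nearest to Fnbp1l (0.0198), Tbx2 to Nov (0.0172), Emp2 to Ppap2b (0.011), Fibin to Tmem59l (0.0594) and Prx to Fam212a (0.00798). These are descriptions over 4 samples that share 2 deposits.

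Of 5 further genes linked to aerocytes, 2 were lower at an adjusted p under 0.05 in the blocked fit and 0 higher, beside 10.1% and 11.5% of all genes. Kdr, the VEGF receptor VEGFR2, which is higher in aerocytes than in general capillary cells, was at 803, 808 and 750 CPM in sham against 609, 613 and 625 CPM after PNX, without overlap, and had a log2 fold change of -0.33 (edgeR adjusted p = 0.488, 0.0694 with the block). The VEGF co-receptor Nrp1 had a blocked log2 fold change of -0.40 (edgeR adjusted p = 0.0272) and the cell cycle inhibitor Cdkn2b -0.50 (0.0252). Igfbp7, a secreted binding protein, had 0.26 (0.114) and Rprml -0.18 (0.596). Vegfa, the ligand of Kdr, was at 4166, 4288 and 2839 CPM in sham against 3214, 3271 and 1909 CPM after PNX, with a blocked log2 fold change of -0.48 (edgeR adjusted p = 0.0422), and the receptor Flt1 had -0.40 (0.0361).

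The same rule on 10 general capillary genes gave 6 lower and 0 higher, beside 10.1% and 11.5% of all genes, with a median log2 fold change of -0.47 in the fit without block. Bmp6, a bone morphogenetic protein, had a blocked log2 fold change of -0.80 (edgeR adjusted p = 7.97e-04), the phosphatase Ptprb -0.74 (0.00405) and Gpihbp1, which holds lipoprotein lipase on capillaries, -0.72 (0.00126). Among 10 pan-endothelial genes 1 was lower, Eng, a TGF-beta co-receptor (-0.45, edgeR adjusted p = 0.0492), and Pecam1 had 0.02 (0.931). Egfl7 and Robo4, the next in size, had -0.33 (0.119) and -0.31 (0.0549). Genes of both kinds of capillary cell were therefore among those lower in the blocked fit, with 5 of 8 and 6 of 10, and no difference between the lists was tested.

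Several lists of other cell markers had ratios farther from 1 than the aerocyte genes. Beside the calls given here, 3.89% of all genes were called higher with the block and 1.23% lower. The summed level after PNX was 8.46 and 7.51 times sham for 8 cell division genes (8 called higher with the block), 3.11 and 3.9 times for 7 fibroblast genes (5 called higher) and 2.9 and 2.6 times for 4 mesothelial genes (4 called higher). It was 0.642 and 0.361 of sham for 8 alveolar type 2 genes (3 called lower) and 0.491 and 0.277 for 6 club and ciliated cell genes (5 called lower). Over the 6 of 7 listed macrophage genes present it was 1.27 and 0.975 times sham (3 called higher). Lyz2, at 1978 to 3549 CPM in sham, made up most of that sum. It had a blocked log2 fold change of -0.01 (edgeR adjusted p = 0.98). The other 5 were higher at 0.05 in the blocked fit, beside 11.5% of all genes. Among them C1qa, C1qb and C1qc had blocked log2 fold changes of 2.49, 2.61 and 2.63. No marker present in these lists was at 0 in a group. The part of other cells in the aerocyte values was not tested, apart from the scaling on pan-endothelial genes given above.

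**Figure D4:**
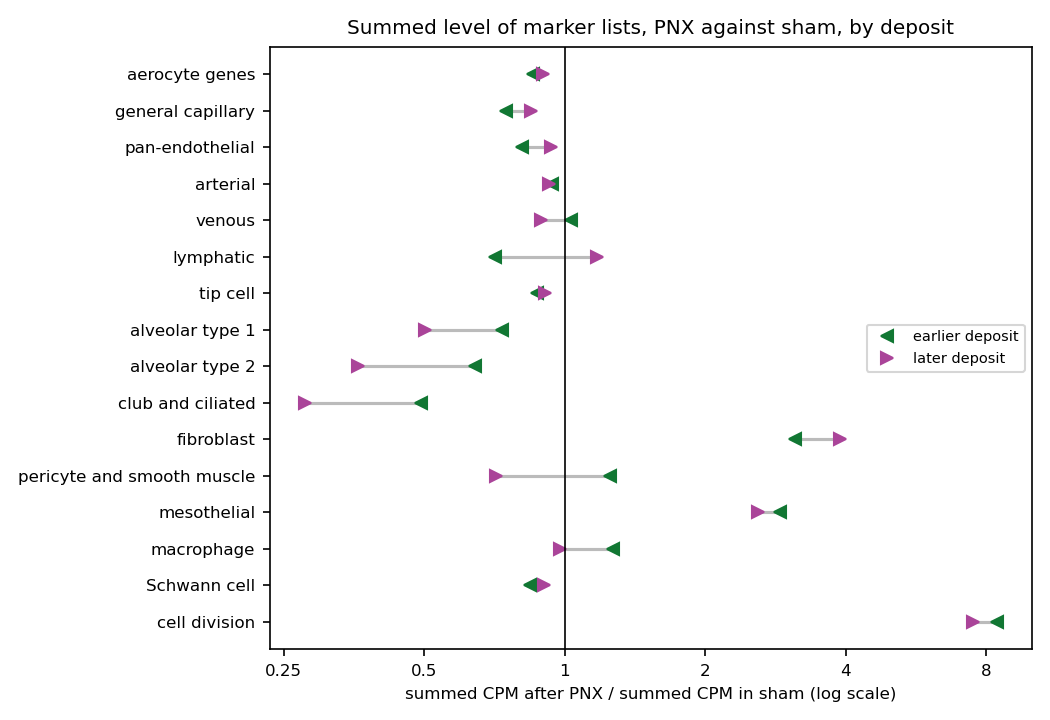
Summed CPM after PNX over summed CPM in sham (horizontal axis, log scale) for the aerocyte genes and 15 other marker lists, in the earlier (left-pointing) and later (right-pointing) deposit. The aerocyte sum is 0.856 and 0.898 of sham, between the ratios of epithelial lists below and fibroblast, mesothelial and cell division lists above. General capillary genes are at 0.75 and 0.845, and pan-endothelial genes at 0.81 and 0.935. Emp2 and Prx, which differ in direction, make up much of the aerocyte sum (1078 and 890 of 3225 CPM in sham replicate 1).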

How the data were processed

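Endothelial cells from mouse lung, 3 sham and 3 PNX libraries, were sequenced from polyadenylated RNA with a stranded kit, in paired ends. The authors aligned the reads to mm10 (GRCm38), and the submitters' processing notes name STAR, with no version. The authors deposited for each library a count, an FPKM and a TPM value per RefSeq transcript (33068 transcripts of 24063 symbols), counted on the Basepair platform. Its counting settings were not given in the sources used here. As deposited, the counts were whole numbers without normalization, and the deposited TPM and FPKM values were scaled for length and depth by the authors. FPKM values were not used for any result.

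Counts were summed per symbol. Replicates 1 and 2 of a group were summed, giving 4 samples. edgeR 4.0.16 (R 4.3.3) was used with TMM scaling, the filterByExpr filter and the quasi-likelihood test, with Benjamini-Hochberg adjustment over 16598 genes. Standard errors were taken as the log2 fold change over the square root of F. CPM per library uses the same scaling. TPM was summed per symbol and only ordered. DESeq2 1.42.0 and limma 3.58.1 (voom) were alternatives, as were other scalings, filters, transcript rules and left-out libraries. The labels place same-numbered libraries of both groups in the same deposit, and deposits moved together in sham and PNX (Pearson r = 0.725, Spearman rho = 0.739 across 14290 genes, which are not independent), so the deposit was also fitted as a replicate block. The block lowered the biological coefficient of variation from 0.236 to 0.0973.

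On simulated data for this comparison, with 200 of 16598 genes changed by a log2 fold of 2, edgeR called 0 without and 188 with the block, and DESeq2 147 and 169. The simulation gave both groups the same deposit effect, taken from sham, and drew its spread from the blocked fit. In the measured data the deposits moved together only in part (Pearson r = 0.725). The simulation therefore cannot show whether the block holds for these data. Changes of the size seen in the aerocyte genes were not simulated.

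The members and gene lists were chosen with earlier results of these data known. Named were all members, all genes of the apelin, endothelin, PMP22 and EMP, VEGFA and further aerocyte lists, every called gene of a list whose calls are described by name, and up to 3 genes with the largest fold change (mean count at least 50) of the others. Pecam1, Scgb1a1, Ager, Car8, Tbx5, Sox10 and Lyz2 were named after their values were seen. Promoter windows came from the RefSeq table for GRCm38.p6 and matched 7 of 8 members. Some genes of the lists are not reported here.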

Additional observations from a re-analysis of the deposited data

Results flagged for a closer look

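Tbx2 was set aside for a closer look because its difference between PNX and sham had opposite signs in the deposits. PNX was above sham by 0.15 on the log2 scale in the earlier deposit, in both libraries, and at -0.33 against sham in the later deposit. The difference between the deposits was not tested, since the later deposit holds 1 library per group.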

How the results depend on the processing

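No aerocyte gene passed the thresholds of the study in any of 26 alternatives, and 5 did at an adjusted p under 0.05 with the replicate block. The count of all genes called, 0 in the main analysis, depended on the tool and the block. It was 572 with DESeq2, 849 with the replicate block, 810 with the block and DESeq2, and 3584 at 0.05 with the block. With 6 separate libraries it was 409, and 920 with the replicate number in place of the deposit as the block. With the block it was 629 with library size alone, 624 with DESeq2 size factors, 643 with identical transcripts counted once and 1047 with pan-endothelial scaling, chosen after seeing the data. At 0.05 the split was 1912 higher and 1672 lower with TMM, and 3307 and 581 with pan-endothelial scaling. When a library was left out, without the block, the count called by the study thresholds was 0 to 2 (2 without PNX replicate 3).

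Car4, Ednrb, Apln, Emp2, Fibin and Chst1 kept their direction in 26 of 26 alternatives. Without the block, the size of their log2 fold changes depended on which libraries were left out. A fit without replicate 3 of 1 group sets both deposits against the earlier deposit alone. In sham the later sample minus the earlier was -0.33 (Car4) to -1.06 (Fibin) on the log2 scale. Without PNX replicate 3 the log2 fold changes were -0.13 for Fibin, -0.16 for Apln, -0.18 for Chst1, -0.32 for Emp2 and -0.38 for Ednrb. Without sham replicate 3 they were -1.07, -0.64, -0.49, -0.82 and -0.81 in the same order, with Car4 at 0.19. Leaving out replicates 1 and 2 of a group together gave -1.52 to -0.04 for Fibin, -0.66 to -0.07 for Apln, -0.48 to -0.13 for Chst1, -0.96 to -0.35 for Emp2, -0.85 to -0.34 for Ednrb and 0.30 to 0.49 for Car4. Tbx2 changed sign with pan-endothelial scaling (0.16, and 0.11 with the block) and with 6 separate libraries without the block (0.04), and ranged from -0.55 to 0.33 when libraries were left out (0.33 without PNX replicate 3, 0.16 without sham replicates 1 and 2). Prx ranged from -0.0035 (without sham replicate 3) to 0.46. The cause was not tested.

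The blocked count at 0.05 was 5 to 7 over its alternatives, and 5 or 6 without a library of the earlier deposit. The 7 came from 6 separate libraries with the replicate number as the block, where 21% of all genes were higher and 21.1% lower. In the blocked fit with 4 samples these shares were 11.5% and 10.1%. Without a library of the earlier deposit they were 9.88% to 11.7% and 7.69% to 10.3%. With DESeq2 and the block Chst1 did not pass (adjusted p = 0.142) and Car4 did. Replicate 3 could not be left out of the blocked fit, which then has no residual degrees of freedom. Counting error is small beside the spread between deposits, and 2 samples per group limit every test.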

Other observations

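In the families of Tbx2 and Chst1, 2 of 11 and 3 of 13 genes tested passed at an adjusted p under 0.05 in the blocked edgeR fit, near the 21.6% of all genes that did. Among the T-box genes Tbx18, a factor of mesothelium and mural cells, was called higher (0.521, 0.488 and 1.1 CPM in sham against 1.53, 1.71 and 3.49 CPM after PNX, log2 fold change 1.67, adjusted p = 0.00341) and Tbx6 was lower (-0.96, adjusted p = 0.019). Among the carbohydrate sulfotransferases Chst4 was higher (0.58, edgeR adjusted p = 0.0183), and Chst1 and Chst15, which sulfates chondroitin, were lower (-0.45 for Chst15, adjusted p = 0.0144). Chst10 and Chst8 did not pass (-0.75 and -0.59, adjusted p of 0.105 and 0.236).

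By the same rule 11.5% of all genes were higher and 10.1% lower, beside which the counts of the following lists stand. Among 6 tip cell genes, Esm1 was called lower with the block, at 18.7, 17.9 and 15.7 CPM in sham against 4.28, 4.06 and 5.1 CPM after PNX (log2 fold change -1.91, edgeR adjusted p = 2.81e-04). The growth factor Pgf and the netrin receptor Unc5b were higher at 0.05 (0.70 and 0.66), 2 of the 6, and 4 were lower. Of 6 arterial genes 2 were lower, Hey1, a Notch target (-0.76, edgeR adjusted p = 0.00703), and the ephrin Efnb2 (-0.53, 0.00917), and Bmx did not pass (-0.36, 0.0713). Of 6 venous genes only Ackr1, a chemokine receptor at 0.571 to 2.21 CPM, was called (1.37, edgeR adjusted p = 0.00914), and Selp and Vcam1 did not pass. Of 6 lymphatic genes, Lyve1 was lower (-0.71, edgeR adjusted p = 0.0453), and Prox1 and Pdpn, which AT1 cells also make, were higher (0.74 and 0.56, adjusted p of 0.0305 and 0.0122).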
